A study of Homo sapiens with 21 samples.

Results

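The 38 genes described here are the transcription factor ATF4, its partners and regulators, and a set of its target genes in stress handling, amino acid synthesis and amino acid uptake. They were taken by gene symbol from the 28008 genes of both deposited count tables, and all 38 were found in each table. By role they are 9 transcription factors and regulators, 6 stress effectors, 9 enzymes of serine and one-carbon metabolism, 4 enzymes of asparagine, proline and alanine synthesis, 2 transsulfuration enzymes and 8 amino acid transporters.

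Messenger RNA was sequenced in 21 libraries of 2 human leukaemia cell lines, in 7 groups of 3 libraries and 2 sequencing batches. OCI-AML3 is an acute myeloid leukaemia line of myelomonocytic character, and K562 is an erythroleukaemia line derived from chronic myeloid leukaemia. Batch 1 held OCI-AML3 parental cells (genotype WT, treatment given as N/A), OCI-AML3 vehicle cells (WT, DMSO), cells labelled OCI-AML3 resistant to StAMP from biological replicate 1 (genotype Res, treatment StAMP; "labelled resistant 1"), and K562 parental cells (WT, N/A). Batch 2 held vehicle cells (WT, DMSO), labelled resistant 1 and a second biological replicate (Res, StAMP; "labelled resistant 2"). The abbreviation StAMP is left unexplained in the labels, and the series title speaks of stapled oncolytic peptides. The sources used here do not say how resistance was selected, how long cells were kept in DMSO or StAMP, or whether a resistant culture was 1 clone. Nothing in the labels ties libraries of a group to separate cultures, so each p-value reflects only the spread among libraries, which may be technical.

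A library of batch 1 held 14.1 to 21.1 M counts (mega counts), and one of batch 2 held 30.7 to 51.3 M. The 9 libraries labelled resistant did not carry the profile of their label. A list of 12 erythroid markers summed to 4813 to 4938 CPM (counts per mega count of the scaled library) in K562 and to 4825 to 5140 CPM in labelled resistant 1 of batch 1. In OCI-AML3 parental it summed to 12.4 to 13.8 CPM, with HBG1, HBZ, RHAG, HEMGN and GATA1 at 0, and in batch 1 vehicle to 20.4 to 20.8 CPM, with HBG1, HBZ, RHAG, HEMGN and ALAS2 at 0. In batch 2 the sums were 1685 to 1804 CPM in labelled resistant 1, 1040 to 1536 CPM in labelled resistant 2 and 12.3 to 15.4 CPM in vehicle. A list of 12 monocyte markers ran the other way, at 2192 to 2310 CPM in OCI-AML3 parental, 2001 to 2040 and 1808 to 1916 CPM in vehicle of batches 1 and 2, and 41.4 to 45.9 CPM in K562. The libraries labelled resistant held 86.5 to 89.3 CPM (labelled resistant 1, batch 1), 177 to 207 CPM (labelled resistant 1, batch 2) and 133 to 147 CPM (labelled resistant 2), with IRF8 at 0 in both of the batch 2 groups labelled resistant. In every comparison of a group labelled resistant with vehicle, resistance and a difference between cell lines cannot be told apart. The comparison of vehicle with parental uses no library labelled resistant, other than to estimate the spread and in the filter on low counts.

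ATF4 is the main effector of the integrated stress response. Kinases that sense uncharged tRNA, unfolded protein, double-stranded RNA or haem shortage phosphorylate the initiation factor eIF2, which lowers general translation while raising translation of ATF4. ATF4 then pairs with other bZIP factors and activates genes for amino acid uptake, amino acid synthesis, redox balance and, under lasting stress, cell death. Because ATF4 is controlled largely at translation, its mRNA is an incomplete measure of its activity.

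A known binding element of ATF4 with C/EBP factors has the core TGATGNAA. Both strands of RefSeq promoter windows (GRCh38.p14, 250 bases before to 50 bases after each annotated start) were searched for these letters. Of the 38 members, 31 had an entry, and GPT2, NUPR1, SLC7A11, PSPH, ALDH1L2, PYCR1 and SHMT2 had none. The letters were found in 9 of the 31 (29.0%), against 1217 of 27305 genes (4.46%), and in 11 of the members' 51 windows (21.6%) against 1270 of 35116 windows (3.62%). The members were chosen as ATF4, its partners, regulators and targets, so their share is not independent of that choice. The 11 windows count the MTHFD1L stretch once for each of its starts. The 6 members with a match before a start are shown because they span 5 of the 6 roles, and the differences between groups reported further on are of these genes' mRNA. Each line gives 30 bases on the gene's strand, 5′ to 3′, with the match in capitals.
ASNS: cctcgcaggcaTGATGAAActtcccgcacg
ATF3: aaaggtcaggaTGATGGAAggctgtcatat
CEBPG: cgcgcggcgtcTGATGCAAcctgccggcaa
CHAC1: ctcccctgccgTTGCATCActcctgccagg
MTHFD1L: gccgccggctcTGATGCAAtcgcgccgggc
SLC1A5: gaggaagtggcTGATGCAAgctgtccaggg
The ASNS stretch is chr7:97872458-97872487 on the minus strand, with the first base of the match at -68 from the start. The ATF3 stretch is chr1:212565205-212565234 on the plus strand, at -191, and lies outside the annotated gene. The CEBPG stretch is chr19:33374060-33374089 on the plus strand, at -42, in an intron of a longer transcript. The CHAC1 stretch is chr15:40953251-40953280 on the plus strand, at -209, and holds the core on the opposite strand. The MTHFD1L stretch is chr6:150866346-150866375 on the plus strand, at -129 and -90 from 2 of its starts and 24 bases after the other. The SLC1A5 stretch is chr19:46784893-46784922 on the minus strand, at -97. In GENCODE the stretches of ASNS, CHAC1, MTHFD1L and SLC1A5 overlap an annotated exon of some transcript. The other 3 members with a match, SLC1A4, SLC3A2 and SLC7A1, had it across or after the start. A match describes the letters of a window and is not a measured binding site.

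The library kit keeps strand, but the sources used here do not state the strand setting of the counting. Another annotated gene of the tables lies on the opposite strand of 12 of the 38 members (ATF5, DDIT3, VLDLR, SHMT1, SHMT2, MTHFD2, ALDH1L1, ALDH1L2, SLC7A11, SLC1A5, SLC1A4 and SLC6A9), whose counts are uncertain to that extent.

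Vehicle cells had higher mRNA of most of these genes than parental cells. Both groups are labelled OCI-AML3 WT and were sequenced in batch 1, and they differ in their labels by DMSO. Of the 38 members, 33 were called higher in vehicle, 1 was called lower and 4 were not called (edgeR quasi-likelihood test, called at a Benjamini-Hochberg adjusted p under 0.05 over 14505 genes, as for every adjusted p below). Among all genes tested, 37.0% were called, 18.7% higher and 18.3% lower. The median log2 fold change was 0.82 over the members and 0.00 over all genes. A call with a log2 fold change of at least 1 in size was made for 15 members and for 4.67% of all genes. NUPR1, among the 33, passed the filter on low counts through the vehicle libraries alone, so its call was favoured by the filter. ALDH1L1 passed only through the libraries labelled resistant, and had 0 counts in all 6 libraries compared.

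**Figure D1:**
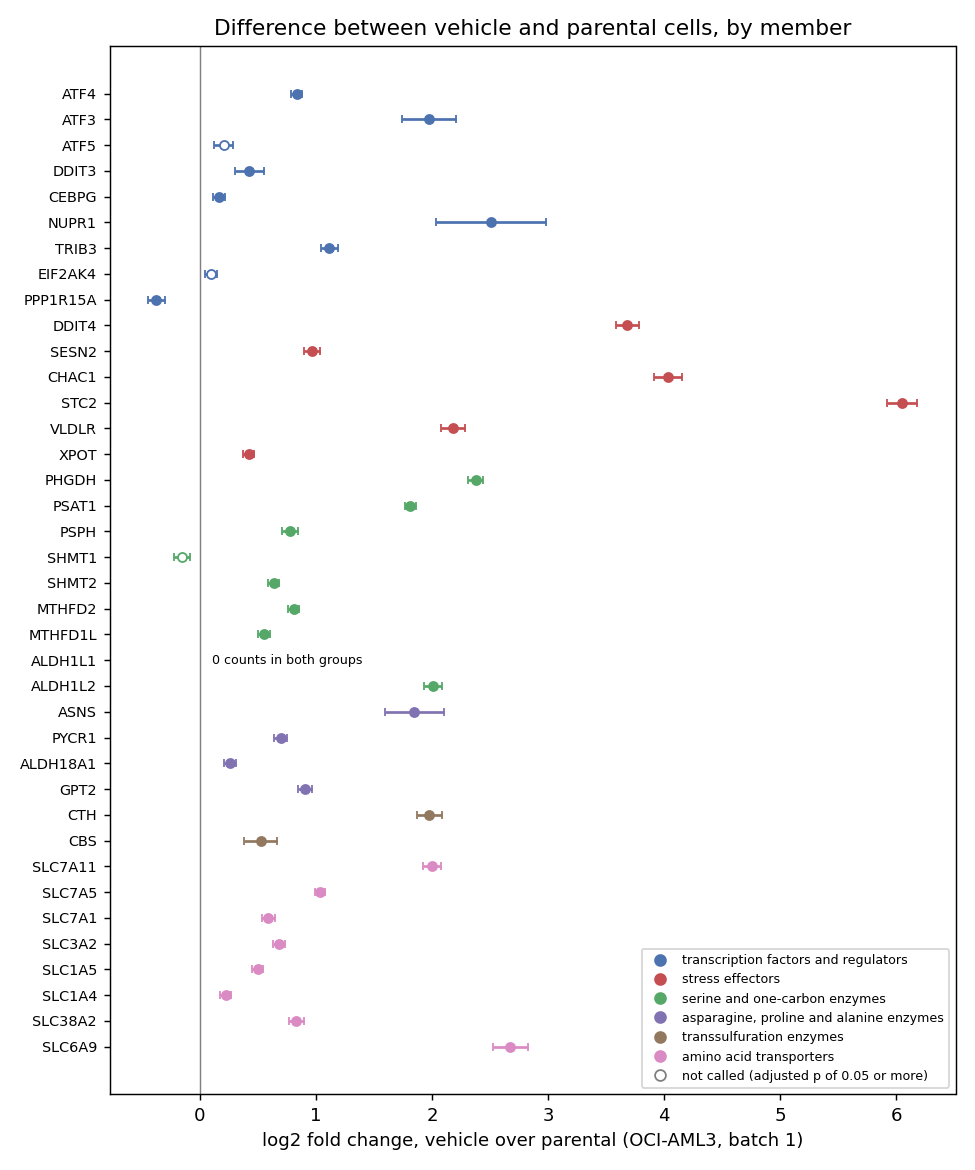
Log2 fold change of each of the 38 members in vehicle over parental OCI-AML3 libraries of batch 1 (horizontal axis; bars are 1 standard error of the fit, n = 3 libraries a group), coloured by role, with open points where the adjusted p was 0.05 or more. Among members with a value, PPP1R15A (-0.37) and SHMT1 (-0.15) lie left of 0 and the rest lie right, and STC2 lies farthest right at 6.05.

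Levels below are CPM after TMM scaling within a batch, in the order of the library numbers, and fold changes come from the fits. Among the factors, ATF4 itself measured 353, 331 and 369 CPM in parental and 636, 656 and 621 CPM in vehicle libraries. The groups lay far apart, and ATF4 mRNA was higher by a log2 fold change of 0.83 (standard error 0.05, adjusted p = 7.9e-14). ATF3, a stress-induced bZIP factor, rose from 1.01, 0.719 and 0.681 CPM to 2.74, 3.53 and 3.55 CPM (log2 fold change 1.97, adjusted p = 1.46e-07). NUPR1, a small stress-induced nuclear protein, measured 0.179, 0.131 and 0.136 CPM against 0.783, 1.13 and 0.751 CPM. With 7 counts over the parental libraries against 48 over the vehicle libraries, the ratio was 6.06 (95% counting interval 2.73 to 15.9). TRIB3, a pseudokinase that dampens ATF4 and DDIT3, rose from 18.1, 19.6 and 21.0 CPM to 42.9, 41.3 and 45.6 CPM (log2 fold change 1.11, adjusted p = 4.52e-12).

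DDIT3 (CHOP), the bZIP factor tied to stress-induced death, was close between the groups. It measured 6.97, 8.23 and 10.1 CPM in parental and 10.8, 13.2 and 10.0 CPM in vehicle, so the highest parental library lay within the vehicle range. Its log2 fold change was 0.43 (adjusted p = 0.00936), and the call ended without vehicle library 2 (0.30, adjusted p = 0.0953) or parental library 1 (0.31, adjusted p = 0.0843). CEBPG, a C/EBP partner of ATF4, had a log2 fold change of 0.16 (adjusted p = 0.0128), which also failed the threshold without vehicle library 1 (0.14, adjusted p = 0.057) or parental library 1 (0.15, adjusted p = 0.0587). PPP1R15A (GADD34), which directs the phosphatase that reverses eIF2 phosphorylation, was the 1 member called lower. It fell from 31.6, 27.8 and 29.3 CPM in parental to 23.1, 22.8 and 24.0 CPM in vehicle (log2 fold change -0.37, adjusted p = 0.000173). ATF5, another bZIP factor, and EIF2AK4 (GCN2), the kinase that senses uncharged tRNA, were not called, with log2 fold changes of 0.21 (adjusted p = 0.0512) and 0.09 (adjusted p = 0.166). ATF5 passed without vehicle library 2 (0.28, adjusted p = 0.0199) or parental library 1 (0.29, adjusted p = 0.0167), and EIF2AK4 without parental library 2 (0.14, adjusted p = 0.0398).

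The stress effectors held the widest differences, and 6 of 6 rose (median log2 fold change 2.93). STC2, a secreted glycoprotein of calcium and phosphate handling, measured 0.714, 0.980 and 0.613 CPM in parental and 49.7, 53.1 and 54.6 CPM in vehicle libraries. This was a log2 fold change of 6.05 (standard error 0.13, adjusted p = 1.29e-22), from 9 to 15 counts per parental library. CHAC1, which degrades glutathione, measured 1.85, 2.42 and 1.91 CPM in parental and 32.9, 35.4 and 35.1 CPM in vehicle (log2 fold change 4.04, adjusted p = 1.04e-19). DDIT4 (REDD1), an inhibitor of mTORC1, measured 6.91, 6.40 and 9.60 CPM against 96.2, 99.9 and 103 CPM (log2 fold change 3.68, adjusted p = 8.54e-19). For all 3 genes the vehicle libraries lay close together and none came near the parental range. How many of all genes were as far apart was not counted. VLDLR, a lipoprotein receptor, rose from 10.6, 11.0 and 10.1 CPM to 53.2, 47.8 and 46.4 CPM (log2 fold change 2.18, adjusted p = 6.74e-15). SESN2, a leucine sensor that restrains mTORC1, and XPOT, the nuclear export receptor for tRNA, rose by 0.96 (adjusted p = 7.83e-12) and 0.42 (adjusted p = 4.01e-08) on the log2 scale.

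The enzymes of all 3 steps of serine synthesis from glycolysis had higher mRNA in vehicle. PHGDH, the first enzyme, measured 42.2, 38.7 and 44.6 CPM in parental and 205, 224 and 237 CPM in vehicle libraries (log2 fold change 2.38, adjusted p = 3e-20). PSAT1, the second, measured 130.4, 134 and 129 CPM against 485, 471 and 457 CPM (log2 fold change 1.81, adjusted p = 1.26e-20). PSPH, the third, measured 31.8, 31.6 and 29.2 CPM against 55.5, 50.8 and 56.0 CPM (log2 fold change 0.78, adjusted p = 5.84e-10). The groups did not overlap for any of the 3 enzymes, and the share of all genes without overlap was not counted.

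Among the one-carbon enzymes, the mitochondrial members rose and the cytosolic ones were not called. SHMT2, which makes glycine and a one-carbon unit from serine in mitochondria, had a log2 fold change of 0.64 (adjusted p = 3.26e-11). MTHFD2 and MTHFD1L, which carry that unit on to formate, had 0.81 (adjusted p = 1.7e-13) and 0.55 (adjusted p = 2.76e-09). ALDH1L2, which oxidises mitochondrial 10-formyltetrahydrofolate, rose from 56.0, 69.4 and 51.3 CPM to 251, 238 and 237 CPM (log2 fold change 2.01, adjusted p = 6.74e-15). SHMT1, the cytosolic counterpart of SHMT2, measured 42.9, 46.9 and 51.5 CPM in parental and 43.1, 43.1 and 43.2 CPM in vehicle, which overlap. Its log2 fold change of -0.15 had an adjusted p of 0.0773, and passed the threshold without parental library 1 (-0.21, adjusted p = 0.0324). ALDH1L1, the cytosolic counterpart of ALDH1L2, was at 0 counts in both groups. The difference between mitochondrial and cytosolic enzymes was not tested.

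All 4 enzymes of asparagine, proline and alanine synthesis were called higher. ASNS, which makes asparagine from aspartate, measured 1.13, 0.784 and 0.817 CPM in parental and 4.25, 3.24 and 2.59 CPM in vehicle (log2 fold change 1.85, adjusted p = 1.57e-06). These are values of the ASNS entry, which held only 12 to 160 counts in any of the 21 libraries, and what share of the gene's reads it holds was not tested. A read-through transcript, CZ1P-ASNS, is also listed, with 2 to 24 counts in any library. In this comparison CZ1P-ASNS held 23, 16 and 23 counts in parental and 20, 24 and 17 counts in vehicle. The ASNS entry held 19, 12 and 12 counts in parental and 76, 66 and 38 counts in vehicle. The sources used here do not state how reads shared by both were assigned, so the log2 fold change is that of the ASNS entry alone. PYCR1 and ALDH18A1, which make proline from glutamate, had log2 fold changes of 0.70 (adjusted p = 1.96e-10) and 0.26 (adjusted p = 0.000235). GPT2, the mitochondrial alanine transaminase, rose from 53.0, 50.1 and 55.7 CPM to 98.0, 106 and 98.2 CPM (log2 fold change 0.90, adjusted p = 5.09e-12).

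Both transsulfuration enzymes, which pass sulfur from homocysteine to cysteine, were called higher. CTH, the cysteine-releasing step, rose from 4.05, 3.92 and 4.43 CPM to 16.6, 16.3 and 17.0 CPM (log2 fold change 1.98, adjusted p = 5.25e-14). CBS, the first step, measured 3.45, 3.79 and 4.08 CPM against 5.48, 5.89 and 5.12 CPM (log2 fold change 0.52, adjusted p = 0.00497). CBS has a near-identical copy, CBSL, listed with 0 to 7 counts, so its counts are uncertain.

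Of the 8 transporters, 8 were called higher. SLC6A9, a glycine importer, measured 2.32, 1.76 and 2.25 CPM in parental and 13.5, 15.6 and 12.1 CPM in vehicle (log2 fold change 2.67, adjusted p = 1.28e-13). SLC7A11, the cystine importer of system xc-, measured 14.8, 14.2 and 13.0 CPM against 61.2, 55.4 and 55.6 CPM (log2 fold change 2.00, adjusted p = 2.32e-17). SLC7A5, the leucine importer LAT1, measured 316, 326 and 328 CPM against 662, 657 and 709 CPM (log2 fold change 1.04, adjusted p = 6.07e-16). Groups did not overlap for these 3 genes, where again the share of all genes was not counted. SLC38A2, a sodium-coupled neutral amino acid importer, and SLC3A2, the heavy chain that carries LAT1 and xc- to the membrane, had log2 fold changes of 0.83 (adjusted p = 2.47e-09) and 0.68 (adjusted p = 8.82e-11). SLC7A1, an arginine importer, and SLC1A5, a glutamine importer, had 0.59 (adjusted p = 3.71e-09) and 0.50 (adjusted p = 4.18e-09). SLC1A4, an importer of serine and alanine, had the smallest difference, from 201, 212 and 203 CPM to 238, 248 and 247 CPM (log2 fold change 0.22, adjusted p = 0.000599).

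**Figure D2:**
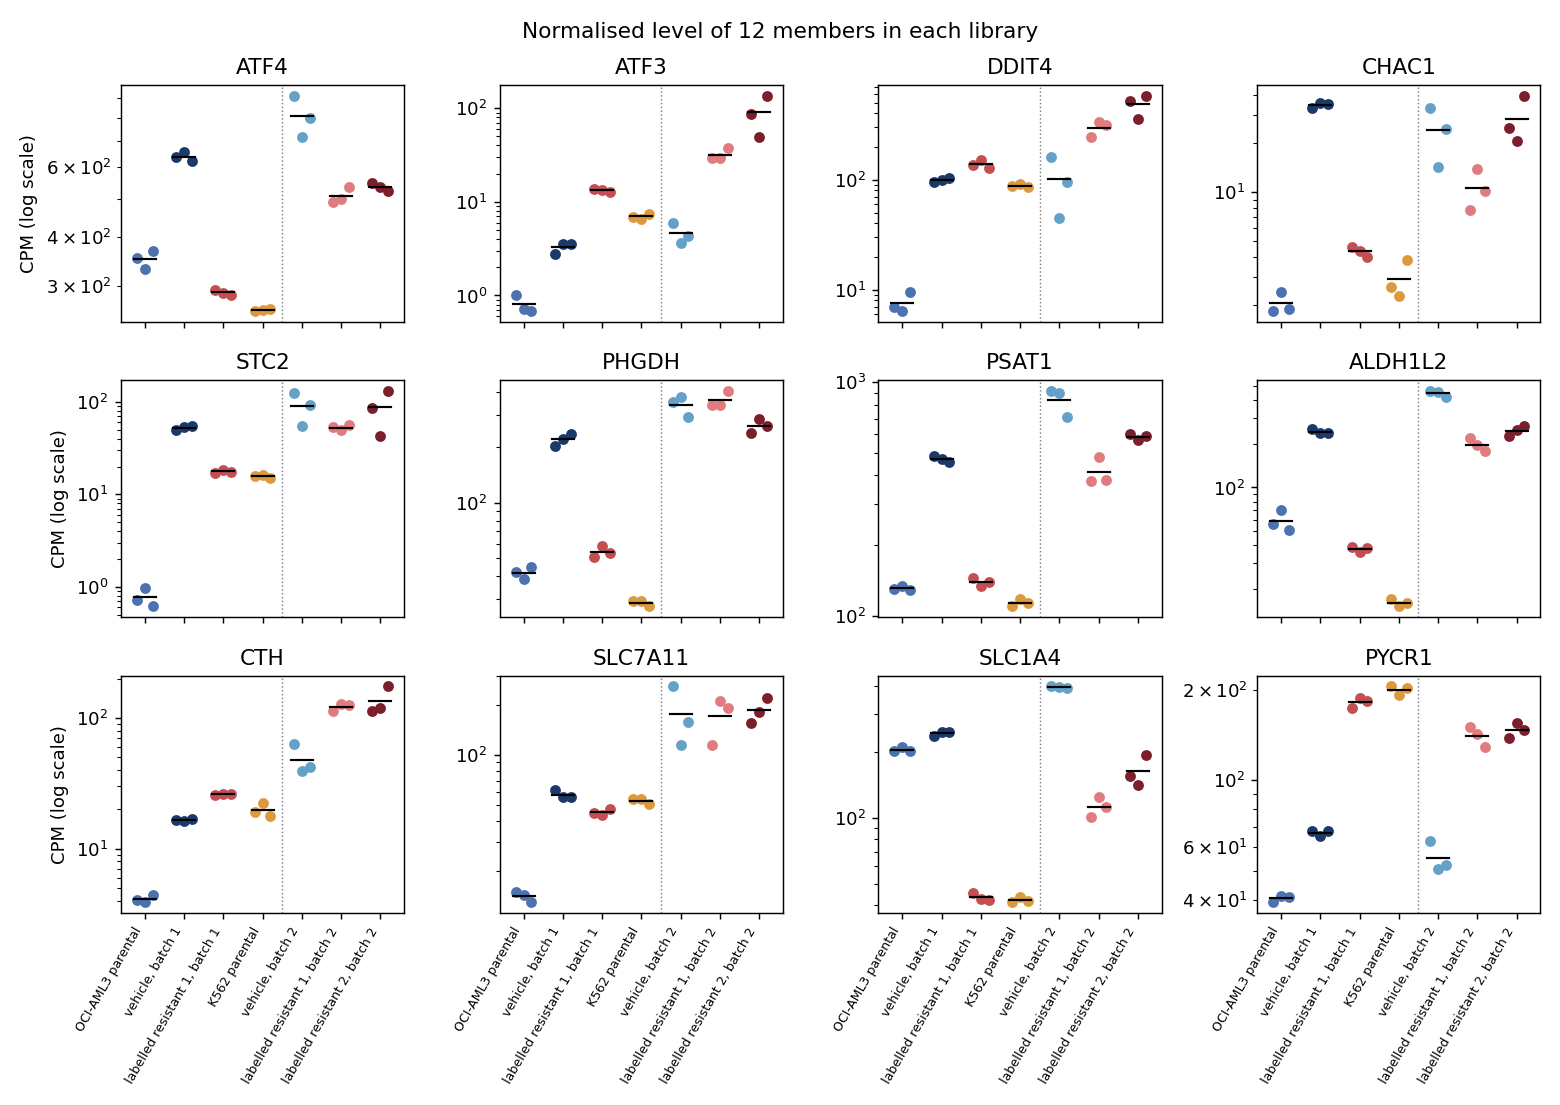
Level of 12 members in each of the 21 libraries (vertical axis, CPM on a log scale, scaled within each batch; points are libraries, bars are group means, and the dotted line separates batch 1 from batch 2). ATF4 lies at 621 to 656 CPM in batch 1 vehicle, above the 331 to 369 CPM of OCI-AML3 parental, and PYCR1 is low in the vehicle groups and high in K562 and the groups labelled resistant.

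Other genes of the pathway were counted in the same comparison. Of 20 cytosolic tRNA synthetases, 14 were higher and 1 lower, against 18.7% of all genes higher and 18.3% lower, with CARS1 at 1.07 (adjusted p = 2.86e-15), GARS1 at 0.98 (adjusted p = 2.83e-15) and RARS1 at -0.26 (adjusted p = 0.000176) on the log2 scale. Of 16 tested genes in a list of other ATF4 targets, 10 were higher and 1 lower, with INHBE at 6.12 (adjusted p = 7.65e-05), ADM2 at 2.20 (adjusted p = 9.64e-15) and NIBAN1 at 2.09 (adjusted p = 3.5e-15). Of 14 other amino acid enzymes 9 were higher and 1 lower, led by ASS1, the arginine synthesis enzyme, at 2.84 (adjusted p = 4.85e-23). Of 12 other amino acid transporters 6 were higher and 2 lower, led by SLC7A2 at 2.51 (adjusted p = 2.32e-17). Other lists had calls in both directions, to be read against the same shares of all genes. Of 16 genes for eIF2 kinases, eIF2 and eIF2B, 4 were higher and 4 lower, with a median of -0.01. Of 11 other folate and glycine genes, 2 were higher and 2 lower, with TYMS at -0.64 (adjusted p = 9.58e-12). Of 10 genes of the endoplasmic reticulum chaperone arm of the unfolded protein response, 2 were higher and 6 lower, with a median of -0.25, and HSPA5 (BiP) was at -0.57 (adjusted p = 2.67e-11). Of the 12 monocyte markers 5 were higher and 1 lower, and of the 12 erythroid markers 2 were higher, with TAL1 at 1.92 (adjusted p = 6.91e-10). The part of these marker changes in the members' differences was not tested. In bulk RNA, fewer cells of a kind and less RNA per cell cannot be told apart.

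K562 and OCI-AML3 parental cells differed in these genes in both directions. Of 36 members tested, 17 were called higher in K562 and 13 lower, and 85.1% of 13883 genes were called (42.6% higher and 42.5% lower), so the members' share was near that of all genes. The median log2 fold change was 0.22 over the members and 0.00 over all genes. NUPR1 and ALDH1L1 did not pass the filter. STC2, among the 17, passed it through K562 alone, and VLDLR, among the 13, through OCI-AML3 parental alone, so both calls were favoured by the filter. STC2 measured 15.6, 16.3 and 14.9 CPM in K562 against 0.613 to 0.980 CPM in parental OCI-AML3 (log2 fold change 4.33, adjusted p = 1.41e-15), and DDIT4 measured 87.2, 91.2 and 85.6 CPM (log2 fold change 3.53, adjusted p = 2.12e-17). ATF3 had a log2 fold change of 3.10 (adjusted p = 8.72e-12), SLC6A9 2.71 (adjusted p = 4.56e-13) and PYCR1 2.31 (adjusted p = 2.33e-19). In the other direction VLDLR measured 0.137, 0.186 and 0.105 CPM in K562. Its 7 counts there against 496 in OCI-AML3 parental gave a ratio of 75.3 in favour of parental (95% counting interval 36.3 to 188). SLC1A4 measured 41.4, 43.7 and 41.6 CPM (log2 fold change -2.28, adjusted p = 2.38e-19), GPT2 had a log2 fold change of -2.17 (adjusted p = 8.19e-15) and ALDH1L2 of -1.87 (adjusted p = 2.12e-11). ATF4 was lower in K562, at 259, 261 and 262 CPM (log2 fold change -0.43, adjusted p = 8.19e-08). The call of CHAC1 (0.52, adjusted p = 0.0421) ended without K562 library 3 (0.24, adjusted p = 0.373), parental library 1 (0.44, adjusted p = 0.14) or parental library 3 (0.47, adjusted p = 0.0955). The CHAC1 call also ended with DESeq2 (0.49, adjusted p = 0.172) or with the replicate number as a block (0.49, adjusted p = 0.0509). That of SLC7A5 (-0.12, adjusted p = 0.024) ended without K562 library 1 (-0.09, adjusted p = 0.129) or K562 library 3 (-0.14, adjusted p = 0.0508). SLC3A2 passed without parental library 2 (-0.12, adjusted p = 0.0433), and EIF2AK4 (-0.16, adjusted p = 0.0109) and ALDH18A1 (-0.13, adjusted p = 0.0331) passed without parental library 3.

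Labelled resistant 1 of batch 1 had lower mRNA than vehicle for most members. Of 38, 23 were called lower, 11 higher and 4 not called, where 86.0% of all genes were called, 42.1% lower and 44.0% higher. The median was -0.55 over the members and 0.02 over all genes. Per the marker lists above, 12 of 12 erythroid markers were higher and 11 of 12 monocyte markers lower in the same comparison, and their part in it was not tested. HBG1, HBZ, RHAG and HEMGN were at 0 in vehicle and parental. They could pass the filter only through the labelled resistant 1 libraries, so their calls were favoured by the filter. Vehicle libraries serve as the control here and as the other arm of the comparison with parental, so the directions of the 2 comparisons are not independent. VLDLR and NUPR1, among the 23, passed the filter without the labelled resistant 1 libraries, and ALDH1L1, among the 11, through those libraries alone, so these 3 calls were favoured by the filter. Where both labelled resistant 1 against vehicle and K562 against OCI-AML3 parental, which compare no library in common, made a call, 22 of 28 members and 10514 of 10809 genes (97.3%) had the same sign.

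By role, the transporters were lower in 7 of 8 and the serine and one-carbon enzymes in 6 of 9. SLC1A4 measured 45.5, 42.6 and 42.3 CPM in labelled resistant 1, near its level in K562 (log2 fold change to vehicle -2.41, adjusted p = 1.28e-24). SLC7A5 measured 203, 214 and 201 CPM (log2 fold change -1.64, adjusted p = 3.05e-22). PHGDH measured 51.1, 58.2 and 53.5 CPM, a log2 fold change of -1.96 (adjusted p = 8.22e-21), PSAT1 was at -1.68 (adjusted p = 4e-22) and ALDH1L2 at -2.61 (adjusted p = 1.89e-18). All of these were far below the vehicle libraries, and the share of all genes as far apart was not counted. VLDLR had 3, 0 and 7 counts, and the 10 counts against 2604 in vehicle gave a ratio of 269 in favour of vehicle (95% counting interval 146 to 561). CHAC1 measured 4.59, 4.34 and 3.98 CPM (log2 fold change -2.91, adjusted p = 2.98e-20) and ATF4 293, 289 and 285 CPM (log2 fold change -1.07, adjusted p = 6.8e-18). Members called higher included ATF3 at 13.6, 13.4 and 12.7 CPM (log2 fold change 2.09, adjusted p = 1.81e-14), PPP1R15A at 80.9, 82.1 and 77.0 CPM (1.86, adjusted p = 6.03e-20), PYCR1 at 174, 187 and 183 CPM (1.51, adjusted p = 2.19e-20) and ATF5 at 54.4, 57.7 and 55.2 CPM (1.08, adjusted p = 2.36e-13). ALDH1L1, at 82, 75 and 66 counts against 0 in the vehicle group, was at least 72.1-fold higher against a floor of 3 counts over the group. That bound covers counting error only.

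Some calls of this comparison rested on 1 library. NUPR1 (-0.89, adjusted p = 0.0207) lost its call without vehicle library 2 (-0.68, adjusted p = 0.135) or labelled resistant 1 library 1 or 2 (adjusted p = 0.0605 and 0.0594), and CBS (0.34, adjusted p = 0.0136) without vehicle library 3 (0.28, adjusted p = 0.0531). ASNS (-0.40, adjusted p = 0.0619) was called without vehicle library 3 (-0.55, adjusted p = 0.0147), and SHMT1 (-0.14, adjusted p = 0.0566) without labelled resistant 1 library 2 (-0.18, adjusted p = 0.0284). With DESeq2 the calls of NUPR1 (-0.89, adjusted p = 0.142) and CBS (0.33, adjusted p = 0.0793) ended. SHMT1 was called with RLE scaling (-0.15, adjusted p = 0.0372). With the compared groups alone, SHMT1 (-0.18, adjusted p = 0.0093) and ASNS (-0.44, adjusted p = 0.0335) were called.

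Against K562 itself, labelled resistant 1 of batch 1 differed by small amounts. Of 36 members tested, 17 were called higher, 12 lower and 7 not called, where 59.8% of 13006 genes were called, 31.3% higher and 28.5% lower. The median was 0.07 over the members and 0.01 over all genes. A log2 difference of at least 1 in size with a call was reached by 2 members, ALDH1L1 and ALDH1L2, and by 9.60% of all genes. ALDH1L1 held 223 counts over the 3 labelled resistant libraries against 2 in K562, a ratio of 102 (95% counting interval 27.8 to 844). It passed the filter through the libraries labelled resistant alone, so its place among the 17 higher and among these 2 was favoured by the filter. ALDH1L2 measured 39.0, 35.6 and 38.5 CPM against 17.1, 15.1 and 16.1 CPM in K562 (log2 fold change 1.25, adjusted p = 6.49e-12), which do not overlap. VLDLR, with 10 counts against 7, and NUPR1, with 25 against 3, were under the filter. Their ratios were 1.30 (95% counting interval 0.447 to 4.03) and 7.59 (2.32 to 39.3).

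Most factors and regulators were higher in labelled resistant 1 than in K562, and most transporters lower. Of 8 tested factors and regulators 6 were higher and 1 lower, with ATF3 at 0.94 (adjusted p = 1.06e-07), PPP1R15A at 0.38 (adjusted p = 2.19e-06), ATF5 at 0.37 (adjusted p = 1.71e-05) and TRIB3 at -0.37 (adjusted p = 2.06e-05) on the log2 scale. ATF4, at 285 to 293 CPM against 259 to 262 CPM, had 0.17 (adjusted p = 0.001). PHGDH had 0.94 (adjusted p = 9.16e-11), ASNS 0.91 (adjusted p = 0.0015), GPT2 0.76 (adjusted p = 1.69e-06) and DDIT4 0.67 (adjusted p = 1.41e-09). Of the 8 transporters 7 were lower, among them SLC7A5 at -0.51 (adjusted p = 1.81e-09), SLC38A2 at -0.48 (adjusted p = 4.17e-08), SLC6A9 at -0.45 (adjusted p = 0.00102) and SLC7A1 at -0.37 (adjusted p = 6.12e-07). SLC1A4, the remaining transporter, had a difference of 0.06 (standard error 0.06, adjusted p = 0.39). The list of other ATF4 targets had 10 of 15 tested genes higher, led by KLHL24 at 1.54 (adjusted p = 7.08e-14), JDP2 at 0.96 (adjusted p = 5.33e-05) and GDF15 at 0.86 (adjusted p = 1.11e-08). Other lists did not share this direction. Other folate and glycine genes had 3 higher and 7 lower, and the endoplasmic reticulum chaperone arm 1 and 5. Genes for eIF2 kinases, eIF2 and eIF2B had 3 higher and 6 lower, and other amino acid transporters 2 and 4. Cytosolic tRNA synthetases had 5 higher and 5 lower, and other amino acid enzymes 6 and 5. Monocyte markers were called higher in 4 of the 4 that could be tested, with sums of 86.5 to 89.3 CPM against 41.4 to 45.9 CPM, and CD86, NOD2 and MPO were at 0 in K562. The other markers of the list were under the filter. A marker at 0 in K562 could pass it only through labelled resistant 1, which favours calls in this direction. Whether OCI-AML3 RNA contributed to the members' differences was not tested.

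Calls of 5 members depended on 1 library. The call of STC2 (0.20, adjusted p = 0.0429) ended without any 1 of 5 of the 6 libraries (adjusted p from 0.0533 to 0.184). K562 library 2 was the exception. The same call also ended with RLE scaling, DESeq2, no filter or the replicate block (adjusted p from 0.0564 to 0.2). DESeq2 also ended the call of CHAC1 (adjusted p = 0.0592), and the block those of PYCR1 and SLC3A2 (adjusted p = 0.074 and 0.0976). Calls also ended for PYCR1 (-0.12, adjusted p = 0.0215) without labelled resistant 1 library 1 (adjusted p = 0.13) or K562 library 3 (adjusted p = 0.0798), for SLC3A2 (-0.12, adjusted p = 0.0321) without labelled resistant 1 library 1 or 3 or K562 library 3 (adjusted p from 0.116 to 0.133), for MTHFD1L (-0.14, adjusted p = 0.0112) without labelled resistant 1 library 3 (adjusted p = 0.0661), and for CHAC1 (0.57, adjusted p = 0.00959) without K562 library 2 (0.42, adjusted p = 0.0617).

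**Figure D3:**
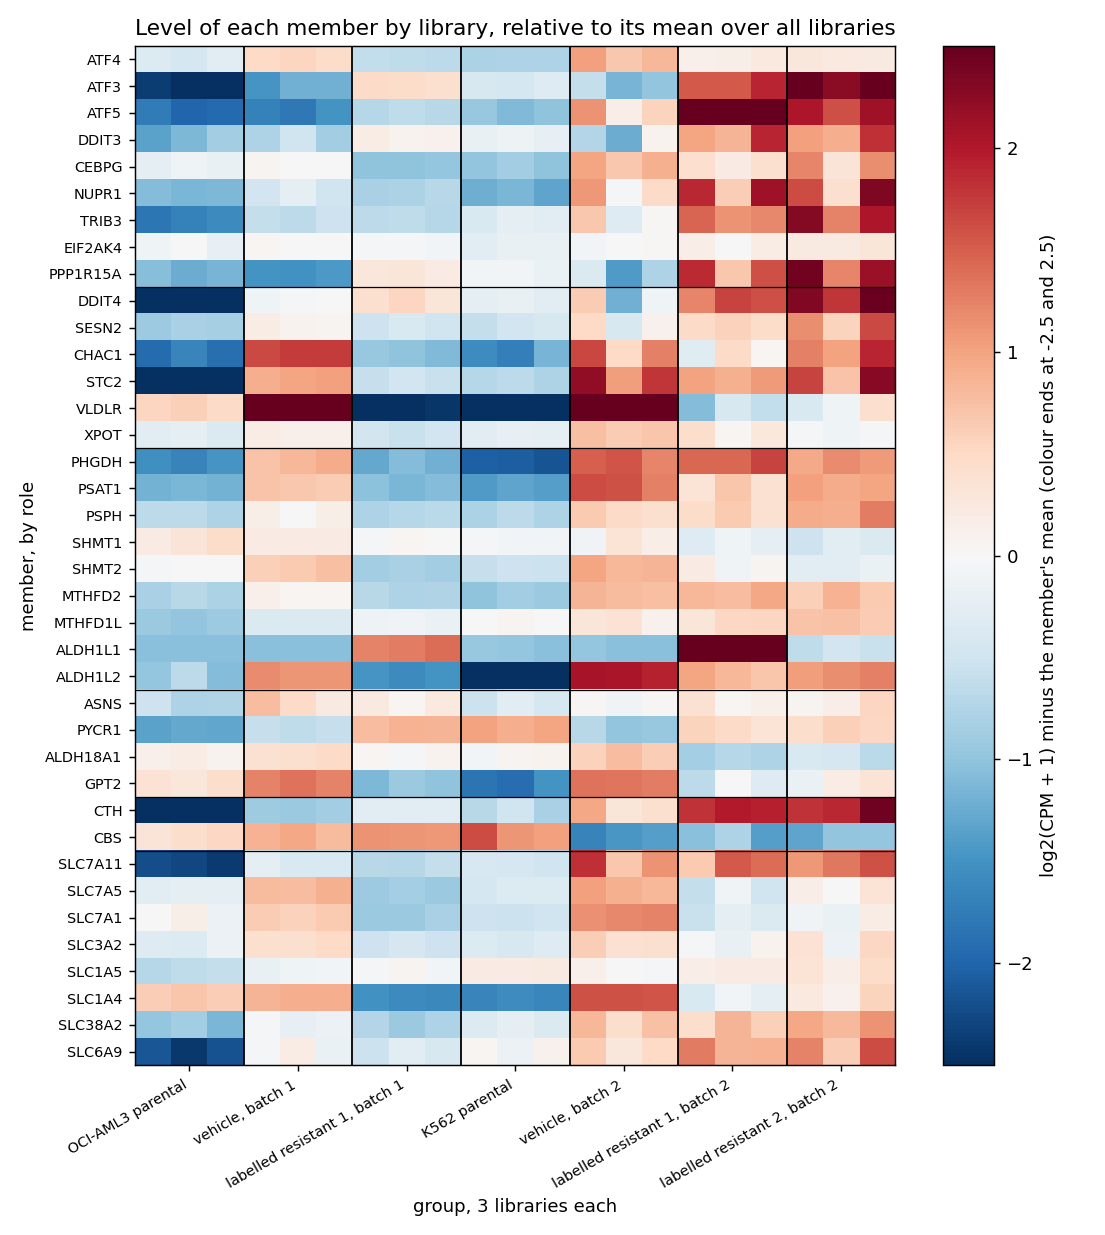
Level of the 38 members (rows, by role) in the 21 libraries (columns, 3 per group), as log2(CPM + 1) minus the member's mean over all libraries, with colours ending at the limits of the scale. CPM were scaled within each batch, so a difference between columns of batch 1 and batch 2 also holds the batch; within batch 1 the vehicle columns are above the parental ones for most rows.

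In batch 2, whose levels were scaled apart from batch 1, labelled resistant 1 differed from vehicle in both directions. Of 38 members 15 were called lower, 11 higher and 12 not called, where 75.7% of 15218 genes were called, 35.8% lower and 39.9% higher. The median was 0.02 over the members and 0.07 over all genes. Labelled resistant 2 against the same vehicle libraries gave 16 higher, 13 lower and 9 not called, where 76.1% of genes were called, 40.2% higher and 35.9% lower. The members' shares were thus near those of all genes, with medians of 0.25 over the members and 0.07 over all genes. These 2 comparisons share their vehicle libraries. In each, 12 of 12 erythroid markers were higher and 11 of 12 monocyte markers lower, whose part was not tested. HBG2, HBZ, RHAG, HEMGN and ALAS2 were at 0 in vehicle and could pass the filter only through the groups labelled resistant. IRF8 was at 0 in those groups and could pass only through vehicle. The filter favoured the calls of these markers. For labelled resistant 1 against vehicle, same-numbered libraries deviated together (correlations of 0.214, 0.267 and 0.221) and were taken as paired. The labels state no pairing, and the counts above are from the fit without it. With the number as a block NUPR1 (1.26, adjusted p = 0.000471) and STC2 (-0.70, adjusted p = 0.0335) were called as well, which made 12 members higher and 16 lower.

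Factors and regulators were mostly higher in the groups labelled resistant of batch 2. ATF3 measured 5.92, 3.63 and 4.28 CPM in vehicle, 29.0, 29.2 and 37.7 CPM in labelled resistant 1 and 87.3, 49.0 and 136 CPM in labelled resistant 2. The 3 groups did not overlap, and the log2 fold changes to vehicle were 2.78 (adjusted p = 2.08e-05) and 4.29 (adjusted p = 7.89e-07). ATF5 measured 197, 101 and 133 CPM in vehicle, 593, 581 and 616 CPM in labelled resistant 1 and 366, 277 and 393 CPM in labelled resistant 2 (2.05, adjusted p = 5.66e-07, and 1.26, adjusted p = 5.54e-05). PPP1R15A measured 51.7, 24.5 and 38.6 CPM, then 247, 106 and 206 CPM, then 359.6, 157 and 300.3 CPM (2.28, adjusted p = 0.000751, and 2.83, adjusted p = 0.000198). DDIT3 was higher by 1.94 (adjusted p = 0.00276) and 1.92 (adjusted p = 0.00282), and TRIB3 by 1.08 (adjusted p = 0.00546) and 1.74 (adjusted p = 0.000243). ATF4 went the other way, with 911, 715 and 799 CPM in vehicle, 489, 498 and 535 CPM in labelled resistant 1 and 546, 534 and 524 CPM in labelled resistant 2 (-0.67, adjusted p = 6.4e-05, and -0.60, adjusted p = 0.000187).

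Effectors and enzymes in batch 2 were split. DDIT4 measured 162, 44.5 and 95.2 CPM in vehicle, 243, 335 and 315 CPM in labelled resistant 1 and 518, 359.5 and 579 CPM in labelled resistant 2 (1.57, adjusted p = 0.00547, and 2.27, adjusted p = 0.00064). VLDLR was far lower, at 78.5, 66.6 and 57.9 CPM in vehicle against 2.77, 5.02 and 4.20 CPM and 5.17, 6.40 and 9.69 CPM (-4.09, adjusted p = 3.74e-09, and -3.25, adjusted p = 2.51e-08). CTH was higher by 1.34 (adjusted p = 1.65e-05) and 1.50 (adjusted p = 5.7e-06), and PYCR1 by 1.35 (adjusted p = 5.25e-08) and 1.40 (adjusted p = 3.22e-08). The other proline enzyme, ALDH18A1, was lower, at 169, 192 and 173 CPM in vehicle against 61.9, 68.1 and 65.6 CPM and 86.0, 84.4 and 69.8 CPM (-1.45, adjusted p = 1.91e-08, and -1.15, adjusted p = 2.3e-07). GPT2 (-1.66, adjusted p = 3.35e-07, and -1.20, adjusted p = 8.9e-06), SHMT2 (-0.83, adjusted p = 5.9e-06, and -1.13, adjusted p = 2.34e-07) and ALDH1L2 (-1.17, adjusted p = 1.91e-07, and -0.85, adjusted p = 5.35e-06) were also lower. CBS was at most 1.07 CPM in every library of batch 2, with 5 to 43 counts, and passed the filter through the groups labelled resistant alone, so its log2 differences of 1.54 (adjusted p = 0.0153) and 1.43 (adjusted p = 0.0227) rest on few reads. Among transporters, SLC1A4 (-1.81, adjusted p = 7.53e-09, and -1.27, adjusted p = 3.34e-07), SLC7A1 (-1.58, adjusted p = 2.39e-08, and -1.21, adjusted p = 4.29e-07) and SLC7A5 (-1.30, adjusted p = 7.93e-07, and -0.74, adjusted p = 0.000198) were lower in both.

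Single libraries of batch 2 ended several calls. For labelled resistant 1 against vehicle these were CEBPG (-0.51, adjusted p = 0.0242), lost without vehicle library 1 or 3 or labelled resistant 1 library 2 or 3 (adjusted p from 0.0515 to 0.0932), SHMT1 (-0.38, adjusted p = 0.0176), lost without vehicle library 2 or 3 or labelled resistant 1 library 1 or 3 (0.0507 to 0.114), SLC6A9 (0.56, adjusted p = 0.035), lost without vehicle library 2 or 3 or labelled resistant 1 library 1 (0.0702 to 0.148), and CBS, lost without vehicle library 1 or labelled resistant 1 library 2 (0.0691 and 0.0818). Calls appeared without vehicle library 1 for SESN2 (0.66, adjusted p = 0.0385) and NUPR1 (1.85, adjusted p = 0.0442), without labelled resistant 1 library 2 for NUPR1 (1.71, adjusted p = 0.0249), and without vehicle library 2 for STC2 (-1.03, adjusted p = 0.0247).

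For labelled resistant 2 against vehicle, the calls that ended were SLC1A5 (0.29, adjusted p = 0.0236), lost without vehicle library 2 or 3 or labelled resistant 2 library 1 or 3 (adjusted p from 0.0503 to 0.1), PHGDH (-0.38, adjusted p = 0.0117), lost without vehicle library 2 or labelled resistant 2 library 1 (0.0628 and 0.0574), EIF2AK4 (0.27, adjusted p = 0.0218), lost without vehicle library 1 or labelled resistant 2 library 3 (0.0626 and 0.061), and CBS, lost without vehicle library 1 or labelled resistant 2 library 2 or 3 (0.0535 to 0.0985). NUPR1 and SLC38A2 were called without vehicle library 1 (1.83, adjusted p = 0.0443, and 0.40, adjusted p = 0.0349) or labelled resistant 2 library 2 (1.73, adjusted p = 0.0135, and 0.37, adjusted p = 0.0274), and CEBPG without the latter (0.35, adjusted p = 0.0148).

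The cultures labelled resistant differed from each other in 13 members, 10 higher and 3 lower in labelled resistant 2, with 25 not called. Of all 15218 genes 24.4% were called, 12.4% higher and 11.9% lower. The median was 0.27 over the members and 0.00 over all genes. ALDH1L1 was the widest difference, at 22.0, 18.4 and 21.2 CPM in labelled resistant 1 and 0.338, 0.494 and 0.405 CPM in labelled resistant 2 (log2 fold change -5.63, adjusted p = 2.05e-08). With 2507 against 57 counts, it was 50.2-fold higher in labelled resistant 1 (95% counting interval 38.6 to 66.5). Vehicle of that batch held 3 counts, all in 1 library, which gives ratios of 800.0 (273 to 3882) for labelled resistant 1 and 15.9 (5.18 to 79.5) for labelled resistant 2. ALDH1L1-AS2, which lies on the opposite strand, held 0 to 16 counts in any library. Of the 12 erythroid markers 4 were lower in labelled resistant 2 (sums of 1040 to 1536 CPM against 1685 to 1804 CPM), and of the 12 monocyte markers 4 were lower and 1 higher (133 to 147 CPM against 177 to 207 CPM), whose part was not tested.

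ATF3 (1.51, adjusted p = 0.00608) and CHAC1 (1.42, adjusted p = 0.0111) led the members higher in labelled resistant 2. CHAC1 measured 7.75, 14.0 and 10.1 CPM in labelled resistant 1 and 24.8, 20.7 and 39.4 CPM in labelled resistant 2, without overlap. The calls of CHAC1 (1.42, adjusted p = 0.0532) and ALDH1L2 (0.32, adjusted p = 0.0595) ended with no filter on low counts. PSPH had 0.55 (adjusted p = 0.00666), SLC1A4 0.54 (adjusted p = 0.00689), SLC7A5 0.56 (adjusted p = 0.00922) and PSAT1 0.51 (adjusted p = 0.0104). The first serine enzyme, PHGDH, went the other way, at 338, 339.8 and 405 CPM against 241, 285 and 261 CPM (-0.46, adjusted p = 0.0141), as did ATF5 (-0.79, adjusted p = 0.0112). Same-numbered libraries deviated together here, with correlations of 0.294, 0.391 and 0.157. Library 3 of labelled resistant 2, however, correlated best with library 1 of labelled resistant 1, so pairing by number is uncertain for these samples. With the number as a block, 14 members were higher and 5 lower. The block added TRIB3 (0.60, adjusted p = 0.00384), PPP1R15A (0.55, adjusted p = 0.000453), ALDH18A1 (0.29, adjusted p = 0.0382), GPT2 (0.47, adjusted p = 0.0148), XPOT (-0.31, adjusted p = 0.0174) and SHMT2 (-0.29, adjusted p = 0.0295).

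Among libraries of batch 2, those numbered 2 stood apart for some members, which was noticed after the values were seen. Library 2 was the lowest of its group in all 3 groups for 10 of 38 members, namely ATF5, DDIT3, CEBPG, NUPR1, TRIB3, PPP1R15A, STC2, XPOT, SLC3A2 and SLC6A9, and for 8.40% of all genes. It was the highest in all 3 groups for 1 member, SHMT1, and for 9.17% of all genes. In labelled resistant 1 it was the highest library for DDIT4, CHAC1 (values above) and SESN2 (80.7 CPM against 75.3 and 74.2 CPM). The sources used here do not say what the number 2 stands for in the cultures. Without these 3 libraries, labelled resistant 2 against labelled resistant 1 gave 17 members higher and 6 lower, and SESN2 (0.96, adjusted p = 0.000919), STC2 (1.00, adjusted p = 0.00278) and SLC38A2 (0.52, adjusted p = 0.00098) were then called. Leaving out 1 library at a time gave 4 to 14 members higher and 2 to 5 lower. The calls of CEBPG (0.62, adjusted p = 0.0293), VLDLR (0.84, adjusted p = 0.0245), ALDH1L2 (0.32, adjusted p = 0.0469) and SLC7A1 (0.37, adjusted p = 0.0386) each ended without at least 1 library of labelled resistant 1 and 1 of labelled resistant 2 (adjusted p up to 0.139, 0.121, 0.199 and 0.175). Those of PSAT1 and SLC7A5 ended without labelled resistant 1 library 1 (adjusted p = 0.0552 and 0.0528) or 3 (0.061 and 0.056), and that of PHGDH without labelled resistant 1 library 3 (0.0812) or labelled resistant 2 library 1 (0.0719).

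The difference of labelled resistant 1 from vehicle was not the same in the 2 sequencing batches. Tested as an interaction over 12 libraries, it was called for 21 of 38 members, with 20 higher in batch 2 and 1 lower, where 33.2% of 15209 genes were called, 15.0% higher and 18.2% lower. The median difference was 0.60 over the members and -0.02 over all genes. An interaction of at least 1 in size with a call was reached by 6 members and by 10.6% of genes. Of the 24 members called in both batches, 23 had the same sign of the difference from vehicle, as had 9451 of 9837 genes (96.1%). The exception was SLC6A9, at -0.39 (adjusted p = 0.00212) in batch 1 and 0.56 (adjusted p = 0.035) in batch 2.

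PHGDH, the first serine enzyme, lay in batch 1 at 205 to 237 CPM in vehicle and 51.1 to 58.2 CPM in labelled resistant 1, and in batch 2 at 294 to 374 CPM and 338 to 405 CPM respectively, so the groups were apart in batch 1 and overlapped in batch 2 (log2 difference of the differences 2.02, adjusted p = 1.89e-08). ALDH1L2 (1.42, adjusted p = 1.13e-07), MTHFD2 (0.77, adjusted p = 2.58e-05), PSPH (0.73, adjusted p = 0.000331), PSAT1 (0.63, adjusted p = 0.00259) and SHMT2 (0.60, adjusted p = 0.000591) shifted the same way, which made 6 of 9 serine and one-carbon enzymes. VLDLR shifted by 3.84 (adjusted p = 9.08e-05), where batch 1 had 3, 0 and 7 counts in labelled resistant 1, under the filter's minimum that the other 3 groups reached. CHAC1 shifted by 1.71 (adjusted p = 0.00459), TRIB3 by 1.07 (adjusted p = 0.00872), ATF5 by 0.96 (adjusted p = 0.011) and ATF4 by 0.38 (adjusted p = 0.0198). ALDH18A1 was the 1 member with a lower difference in batch 2 (-1.16, adjusted p = 2.92e-07). Among other lists, 8 of 16 ATF4 targets and 7 of 10 endoplasmic reticulum chaperone genes were called higher. Of 16 genes of eIF2 kinases, eIF2 and eIF2B, 6 were called lower. Of 20 cytosolic tRNA synthetases, 5 were higher and 8 lower (median -0.13). Of 14 other amino acid enzymes, 2 were higher and 6 lower (median -0.25). Of 12 other amino acid transporters, 1 was higher and 5 lower (median -0.36). Of 11 other folate and glycine genes, 2 were higher and 5 lower (median -0.46). ADM2 shifted by 2.17 (adjusted p = 1.16e-05), and MARS1 by 1.06 (adjusted p = 7.48e-06). Erythroid sums in labelled resistant 1 were 4825 to 5140 CPM in batch 1 and 1685 to 1804 CPM in batch 2, with 1 of 12 markers called lower. Monocyte sums were 86.5 to 89.3 CPM and 177 to 207 CPM, with 6 of 12 markers called higher and 1 lower. The part of either in these shifts was not tested.

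**Figure D4:**
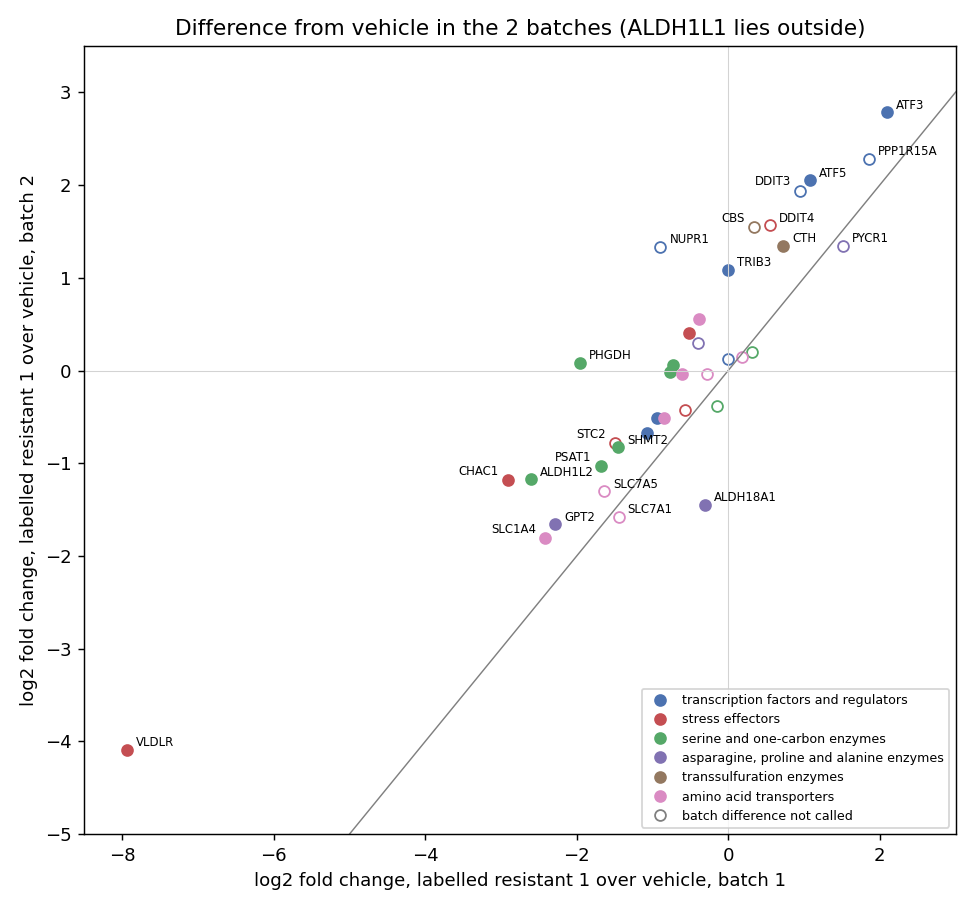
Log2 fold change of labelled resistant 1 over vehicle in batch 1 (horizontal axis) and batch 2 (vertical axis) for 37 members, coloured by role, filled where the difference between batches was called, with the line of equal change; names are given where the difference between batches or either change was wide. Most points lie above the line, PHGDH at -1.96 and 0.08 among them, and ALDH18A1 lies below it at -0.31 and -1.45; ALDH1L1 lies outside the axes.

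Several of these interaction calls ended when 1 library was left out. They were ATF4 without vehicle library 2 (0.35, adjusted p = 0.0607) or labelled resistant 1 library 3 (0.35, adjusted p = 0.0614) of batch 1, ATF3 (0.67, adjusted p = 0.0459) without any of 8 of the 12 libraries (adjusted p up to 0.134), SLC3A2 (0.31, adjusted p = 0.046) without any of 10 of the 12 (adjusted p up to 0.123), and CTH (0.60, adjusted p = 0.0234) without vehicle library 3 or labelled resistant 1 library 1 or 3 of batch 1, or vehicle library 2 or 3 or labelled resistant 1 library 2 of batch 2 (adjusted p from 0.0508 to 0.0602). Calls appeared for NUPR1 (2.70, adjusted p = 0.0142), DDIT4 (1.52, adjusted p = 0.00919), STC2 (0.98, adjusted p = 0.00218) and SHMT1 (-0.37, adjusted p = 0.032) without vehicle library 1 of batch 2. DDIT3 (1.42, adjusted p = 0.0191) and CBS (1.55, adjusted p = 0.0314) were called without vehicle library 3 of batch 2, STC2 (0.42, adjusted p = 0.0425) without its library 2, and NUPR1, CBS and SLC7A5 without labelled resistant 1 library 2 (2.57, adjusted p = 0.00245), 3 (1.49, adjusted p = 0.0128) and 1 (0.42, adjusted p = 0.0271) of that batch. With no filter on low counts the calls of ATF5 (0.93, adjusted p = 0.0571) and SLC3A2 (0.29, adjusted p = 0.0736) ended. With the library number as a block NUPR1 was called as well (2.25, adjusted p = 0.00994), which made 21 members higher and 1 lower. Without the vehicle and labelled resistant 1 libraries numbered 2 of batch 2, 27 members were called higher and 1 lower.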

How the data were processed

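Libraries were strand-specific, from total RNA, and sequenced as paired reads, per the labels. The authors deposited raw counts per gene symbol, 1 table per batch. Reads were aligned to hg38 and DESeq2 1.22.1 was used, per the submitters' processing notes. Aligner version, annotation and strand setting: not given in the sources used here. Counts were tested on the deposited scale with edgeR 4.0.16 in R 4.3.3 (TMM, filterByExpr, robust quasi-likelihood F tests, two-sided, Benjamini-Hochberg over all genes tested). One fit held the parental, vehicle and labelled resistant 1 libraries of batch 1 and one the 9 libraries of batch 2; comparisons with K562 used the 6 libraries of their groups, and the batch difference 12. Precision follows depth, 14.1 to 21.1 M (mega counts) per library in batch 1 and 30.7 to 51.3 M in batch 2. Intervals and floors (3 counts) cover counting error only. Positions came from GENCODE v44 (hg38), promoters from RefSeq (GRCh38.p14).

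The members and lists were chosen with earlier results of these data known. All 38 members could be named, and at most 3 rising and 3 falling called genes of each other list. Alternatives were RLE scaling, DESeq2 1.42.0, no filter, a replicate block, the compared groups alone, and leaving out libraries; the libraries numbered 2 of batch 2 were left out together after seeing the data. Same-numbered libraries were taken as paired where they deviated together, with a correlation over 0.1 in every pair. This held for labelled resistant 1 against vehicle in batch 2 (0.214, 0.267 and 0.221). It also held for labelled resistant 2 against labelled resistant 1 (0.294, 0.391 and 0.157). There, library 3 of labelled resistant 2 correlated best with library 1 of labelled resistant 1. The pairing comes from the numbers in the labels.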

Additional observations from a re-analysis of the deposited data

Results flagged for a closer look

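The difference of labelled resistant 1 from vehicle differed between the sequencing batches, by a test of that difference itself (edgeR interaction term, Benjamini-Hochberg adjusted p under 0.05), for 21 of the 38 members. Values are log2 differences, batch 2 minus batch 1.

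Among factors and regulators they were 0.38 for ATF4, 0.67 for ATF3, 0.96 for ATF5, 0.41 for CEBPG and 1.07 for TRIB3. Stress effectors had 0.91 for SESN2, 1.71 for CHAC1 and 3.84 for VLDLR. Serine and one-carbon enzymes had 2.02 for PHGDH, 0.63 for PSAT1, 0.73 for PSPH, 0.60 for SHMT2, 0.77 for MTHFD2 and 1.42 for ALDH1L2. The remaining enzymes were GPT2 at 0.60, CTH at 0.60 and ALDH18A1, the 1 negative value, at -1.16. Transporters had 0.31 for SLC3A2, 0.59 for SLC1A4, 0.54 for SLC38A2 and 0.92 for SLC6A9. Libraries of batch 2 were deeper, at 30.7 to 51.3 M counts against 14.1 to 21.1 M, and the part of depth in these values was not tested.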

How the results depend on the processing

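Of 3493 values of members recomputed under the alternatives, 3283 kept their side of the threshold, 93 gained a call, 117 lost one and 0 reversed. Direction was compared only where a value was called in the main fit or the alternative, so a change of sign among uncalled values was not counted. In vehicle against parental, 32 to 34 members were higher when libraries were left out singly and 33 when only those 2 groups were fitted; the members lower were 1 to 2. Labelled resistant 2 against labelled resistant 1 depended most on the setting. Its members lower numbered 3, 5 with DESeq2, 5 with the replicate block, 2 to 5 leaving out single libraries and 6 without the libraries numbered 2. Its members higher numbered 10, 4 to 14 leaving out single libraries, 14 with the replicate block and 17 without the libraries numbered 2, and its genes called numbered 3706, 2323 to 4814 and 5630 without those numbered 2. The members lower in the batch difference were 1 to 2 leaving out single libraries. The cause was not tested.

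With the replicate number as a block, the comparisons of batch 2 taken as paired changed no call of a member other than those given beside them. Other comparisons did not meet the rule of a correlation over 0.1 in every pair. Among these the block gave 33 members higher and 1 lower for vehicle against parental. For labelled resistant 2 against vehicle it gave 18 higher and 13 lower, in place of 16 and 13. In the latter comparison every library correlated best with its own number (0.0843, 0.211 and 0.155). Counts were low for ASNS, CBS, NUPR1, ALDH1L1 and, in K562 and labelled resistant 1 of batch 1, VLDLR. CBS had 58 to 146 counts per library in batch 1 and 5 to 43 in the deeper batch 2, the cause of which was not tested.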
